A study of Mus musculus with 20 samples.

Results

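The 4 libraries described here came from 2 control mouse embryonic stem cell (mESC) lines, each sampled as undifferentiated mESCs at day 0 and as embryoid bodies (EBs) at day 3. They were chosen by their labels and column names, and they are 4 of the 20 samples of the series. Both lines were derived from V6.5, an mESC line from a C57BL/6x129/SvJae cross, carry the label Wild-Type, and were made by nucleofection with a non-targeting guide RNA (NT) in parallel with the Zmym2-/- lines. Each line is 1 clone grown from a single colony, so the 2 lines are the replicates, and the mESC and EB libraries with the same number were taken as the same line because the column names give them the same NT number. The mESCs were grown on gelatin in serum with LIF, the cytokine that holds them undifferentiated, and EBs are the cell aggregates in which they differentiate. The other samples are 4 libraries of Zmym2-/- lines at the same stages, which are used below for comparison, and 12 embryos, which are not used here. The question asked of the data was what the step from mESC to day 3 EB looks like across all genes in lines with intact Zmym2.

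In serum and LIF, mESCs hold the naive state of the preimplantation epiblast, which rests on a network of transcription factors fed by LIF through STAT3 and by Wnt. When these supports are withdrawn, FGF and ERK signalling carries the cells through a formative state, in which Pou5f1 stays on, naive factors are switched off and the de novo DNA methyltransferases are induced. Only afterwards do the primed epiblast and the germ layers (streak mesoderm, endoderm and neural plate) arise. mESCs also transcribe a set of germ cell genes at a low level, many of them under the repression of the PRC1.6 complex and of DNA methylation.

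The libraries held between 33183937 and 47177872 counts, so that depth differed by less than 1.5 times between libraries. The deposited mESC and EB tables share 18926 genes, and 18516 of these passed a minimum of 10 counts summed over the 4 libraries and were tested. Across genes, log2 CPM correlated at 0.991 between the lines in mESCs and in EBs, and at 0.944 to 0.947 between a library of one stage and a library of the other. Zmym2 itself was present in all 4 control libraries, at 8.56 and 8.98 RPKM (reads per kilobase of gene, scaled to depth) in mESCs and 11.7 and 11.8 in EBs. In the 4 libraries labelled Zmym2-/- it lay between 3.48 and 4.12 RPKM, below every control library. The p-values measure the spread between 2 clones of 1 parental line only, and each stage was deposited as a table of its own.

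Of the 18516 genes, 4501 rose from mESC to EB and 4610 fell (edgeR quasi-likelihood test, Benjamini-Hochberg adjusted p under 0.05, "called" below), which is 24.3% and 24.9% of the genes tested. Changes of at least 4-fold were called for 747 genes that rose, or 4.03%, and 780 that fell, or 4.21%. Most calls were small, since 5431 of the 9111 called genes differed by less than 2-fold. At the other end, 107 genes rose and 136 fell by at least 16-fold, and 15 rose and 28 fell by at least 64-fold. The EB libraries lay wholly above the mESC libraries for 6837 genes (36.9%) and wholly below them for 6958 (37.6%). Both lines moved in the called direction for 9110 of the 9111 called genes. In bulk RNA, fewer cells expressing a gene and less RNA per cell cannot be told apart, and this holds for every change given below.

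**Figure D1:**
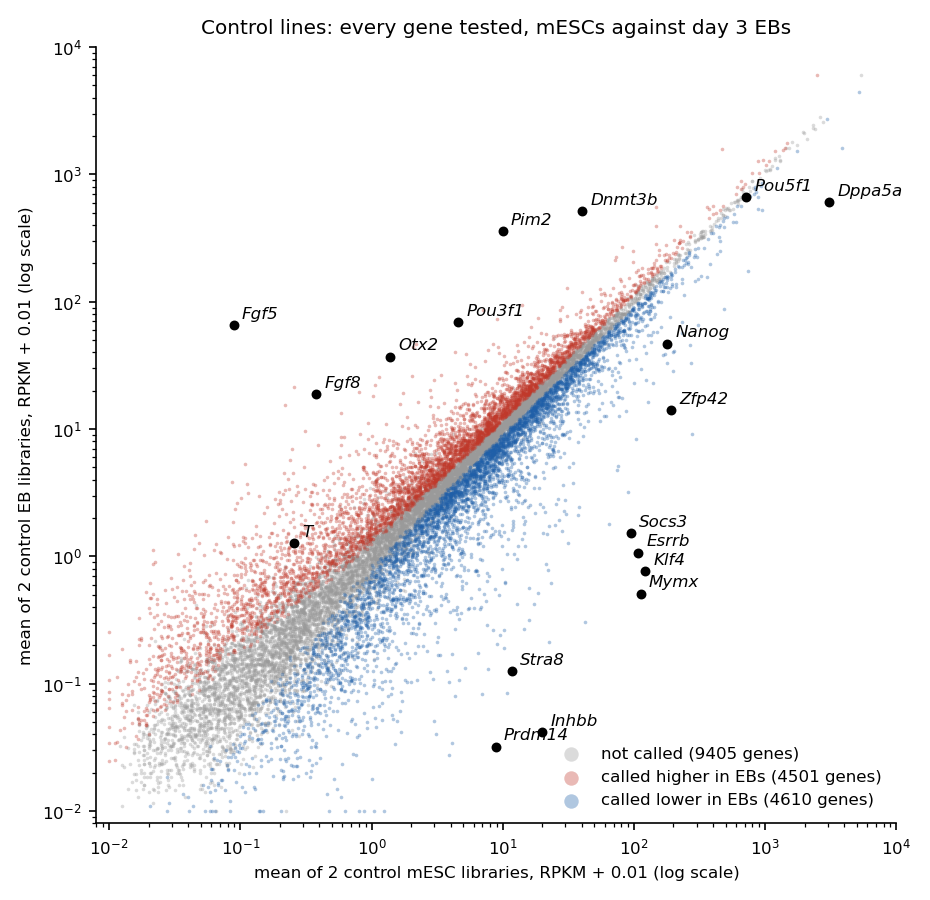
Each point is 1 of the 18516 genes tested, placed by its mean RPKM in the 2 control mESC libraries (x) and the 2 control EB libraries (y), both on log scales after adding 0.01. The 4501 genes called higher in EBs are red, the 4610 called lower are blue, and the black points are named genes: Fgf5 and Otx2 sit far above the diagonal, Klf4, Esrrb and Prdm14 far below it, and Pou5f1 close to it.

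The labelled cell types were checked against markers. All 6 mESC markers were strongly present in the mESC libraries and all 6 were called lower in EBs, but to very different extents. Pou5f1 (chr17:35506018-35510772, GRCm38), the factor shared by naive and primed pluripotent cells, was at 707 and 728 RPKM in mESCs and at 668 and 649 in EBs. The groups did not overlap, and the log2 change was small at -0.16 ± 0.05 (SE, adjusted p = 0.018). This call was lost with library totals as the only scaling, with limma on RPKM, and without the EB library of line 1 (-0.18) or line 2 (-0.14). Sox2, its partner factor, went from 244 and 233 RPKM to 107 and 119. Nanog went from 161 and 195 to 54.7 and 39.0 RPKM, a fall of 1.96 ± 0.14 on the log2 scale.

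All 4 formative and primed markers rose. Fgf5 (chr5:98254184-98277030), the ligand that marks the epiblast after implantation, was at 0.136 and 0.022 RPKM in mESCs and 64.05 and 66.81 in EBs, the largest fitted rise of all genes tested at 9.52 ± 0.21 on the log2 scale. Its mESC level rests on 16 and 2 reads. Otx2 (chr14:48657677-48673819), a homeodomain factor that drives the exit from the naive state, went from 1.42 and 1.32 to 33.8 and 40.3 RPKM. Pou3f1, a POU factor of the same stage, went from 5.04 and 4.12 to 63.9 and 74.4 RPKM. Dnmt3b (chr2:153649450-153687730), a de novo DNA methyltransferase, went from 47.4 and 33.3 to 505 and 523 RPKM.

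Markers of later cells differed from each other. Of the streak markers, T (brachyury) rose from 0.302 and 0.189 to 1.72 and 0.820 RPKM, and Eomes from 2.10 and 2.58 to 9.33 and 5.64. For both genes the EB of line 1 was the higher, and the groups did not overlap. Mixl1 also rose, to 1.01 and 0.591 RPKM (a call lost without the EB library of line 1, at 1.06 on the log2 scale), whereas Mesp1, a factor of cardiac and cranial mesoderm, fell from 0.432 and 0.515 to 0.071 and 0.128. Among neural plate markers Nes, an intermediate filament gene, rose from 3.19 and 2.43 to 18.8 and 16.7 RPKM, and Pax6 rose from 0.478 and 0.248 to 0.698 and 0.561 RPKM. The Pax6 call was lost with limma, without the mESC library of line 2 (0.36) and without the EB library of line 1 (0.58). Sox1, which defines the neural plate, fell from 2.98 and 2.57 to 1.29 and 0.561.

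The 4 primitive endoderm markers summed to 1.92 and 0.961 RPKM in mESCs and 1.15 and 0.589 in EBs, so the lines differed more than the stages. Gata6 and Sox7 fell, and Gata4 and Sox17 were not called. Both calls were lost with limma, and that of Sox7 also by DESeq2, with all 8 libraries, and without the mESC library of line 1 (-0.89) or the EB library of line 2 (-0.92). The visceral endoderm marker Ttr was listed at 0.036 and 0 RPKM in mESCs and 2.34 and 0.343 in EBs, and Afp at 0 in both mESC libraries and 0.125 and 0.064 in EBs. The 3 trophectoderm markers did not exceed 0.520 RPKM in any EB, with Elf5 at 0.015 and 0. In the longer trophectoderm list 7 of 16 tested genes rose and 3 fell, beside 24.3% and 24.9% over all genes tested. Its summed level went from 51.8 and 55.6 RPKM in mESCs to 120.3 and 90.7 in EBs. Among those that rose were Krt8 and Krt18, which are also in the epithelial list. The embryonic globin Hbb-bh1 was listed at 0 in both mESC libraries and at 0.541 and 0.133 in EBs. Feeder fibroblast markers were low at both stages: Col1a1 rose from 0.239 and 0.142 to 0.661 and 0.603 RPKM, Col1a2 rose to 0.155 and 0.135, and Postn was at 0.003 or 0 throughout. Over the longer list of 14 feeder genes the summed level was 6.54 and 5.49 RPKM in mESCs and 21.7 and 15.8 in EBs, and 6 of the 7 genes tested rose, among them Tagln and Thy1. The methods name gelatin and no feeder layer for the mESCs. Neither the source of these RNAs nor its part in other changes was tested.

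**Figure D2:**
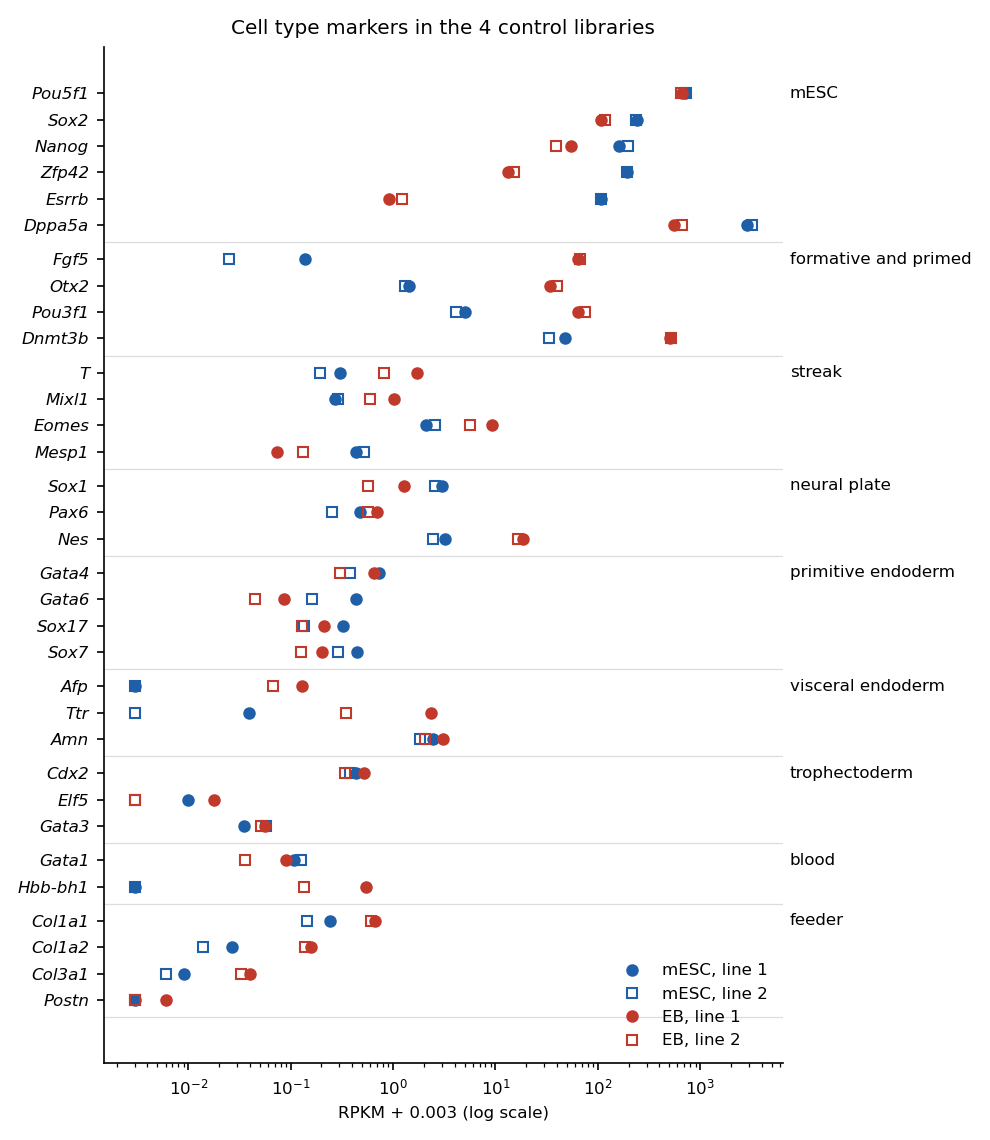
RPKM of 33 cell type markers in each of the 4 control libraries, on a log axis after adding 0.003 (circles line 1, squares line 2, blue mESCs, red EBs). The naive markers Esrrb and Zfp42 and the formative markers Fgf5 and Otx2 are widely separated between stages, whereas the primitive endoderm, trophectoderm and blood markers stay below 1 RPKM at both stages.

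The naive genes fell together, to different depths. All 21 genes of the naive list were tested and all 21 fell, 20 of them by at least 4-fold. Of all genes tested 24.9% fell, and 4.21% fell by at least 4-fold. The median log2 change was -3.89 over the list against -0.004 over all genes tested. The median was -3.93 in line 1 and -3.80 in line 2. Klf4 (chr4:55527143-55532466), a Krüppel-like factor downstream of LIF, was at 114 and 127 RPKM in mESCs and 0.830 and 0.676 in EBs, a 165-fold fall. Esrrb (chr12:86361117-86521628), an orphan nuclear receptor at the core of the network, went from 108 and 107 to 0.907 and 1.22 RPKM. Prdm14 (chr1:13113457-13127163), which represses FGF receptors and DNA methyltransferases, went from 8.30 and 9.31 to 0.012 and 0.032 RPKM, with 4 reads left in the EBs together.

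Tfcp2l1, a factor held on by LIF, fell from 15.7 and 16.1 to 0.271 and 0.345 RPKM. Zfp42 (Rex1), the usual reporter of the naive state, was less reduced, from 191 and 194 to 13.2 and 15.1 RPKM. Other members fell as well, Tcl1 by 5.43 on the log2 scale, Fbxo15 by 5.21, Nr5a2 by 4.13, Nr0b1 by 4.00, Klf2 by 3.70 and Klf5 by 3.48. Spp1, which encodes osteopontin, fell from 256 and 294 to 8.81 and 9.48 RPKM. Jam2, a junctional adhesion molecule, fell from 21.01 and 24.23 to 0.269 and 0.135. Nanog had the smallest fall of the 21, and Dppa5a, the most abundant member, still stood at 554 and 664 RPKM in EBs after 2891 and 3215 in mESCs. The summed level of the list went from 4407 and 4754 to 689 and 789 RPKM.

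The factors of general pluripotency behaved differently from the naive genes. Of 19 tested, 5 rose and 10 fell, only Triml2 by at least 4-fold, with a median log2 change of -0.17. The share that rose was near the 24.3% over all genes tested, of which 24.9% fell. Sall4, a zinc finger partner of Pou5f1, was not called, at 33.0 and 29.3 RPKM in mESCs and 31.9 and 34.1 in EBs. Utf1 fell by 0.18 ± 0.06 on the log2 scale, from 530.4 and 491 to 449 and 475 RPKM. The Utf1 call was lost with library totals, limma or all 8 libraries in the fit, and without the mESC library of line 1 (-0.13) or the EB library of line 1 (-0.14) or line 2 (-0.22). Foxd3, a forkhead repressor, rose from 15.4 and 13.7 to 45.2 and 50.6 RPKM, and Lin28b, which blocks let-7 maturation, rose by 0.86 ± 0.08. Dppa4 fell by 0.81 ± 0.07, and Tdgf1, the Nodal co-receptor Cripto, fell from 379.7 and 529 to 241 and 258 RPKM.

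In the formative and primed list 18 of 22 genes rose, 10 by at least 4-fold, against 24.3% and 4.03% of all genes tested. The median log2 change over the list was 1.63. The median was 1.40 in line 1 and 1.91 in line 2. Beside Fgf5, Otx2, Pou3f1 and Dnmt3b, the zinc finger gene Sall2 rose from 2.33 and 1.81 to 43.4 and 45.4 RPKM. Zic2, a zinc finger factor of the epiblast, rose from 9.68 and 4.45 to 88.2 and 83.7, and Sox3 from 4.14 and 4.52 to 39.1 and 41.7. Against the list, Etv4, an ETS factor induced by ERK, fell from 67.0 and 68.6 to 26.7 and 26.1 RPKM. Tcf15, a basic helix-loop-helix factor that marks the start of the exit, fell from 237 and 228 to 61.7 and 78.0.

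**Figure D3:**
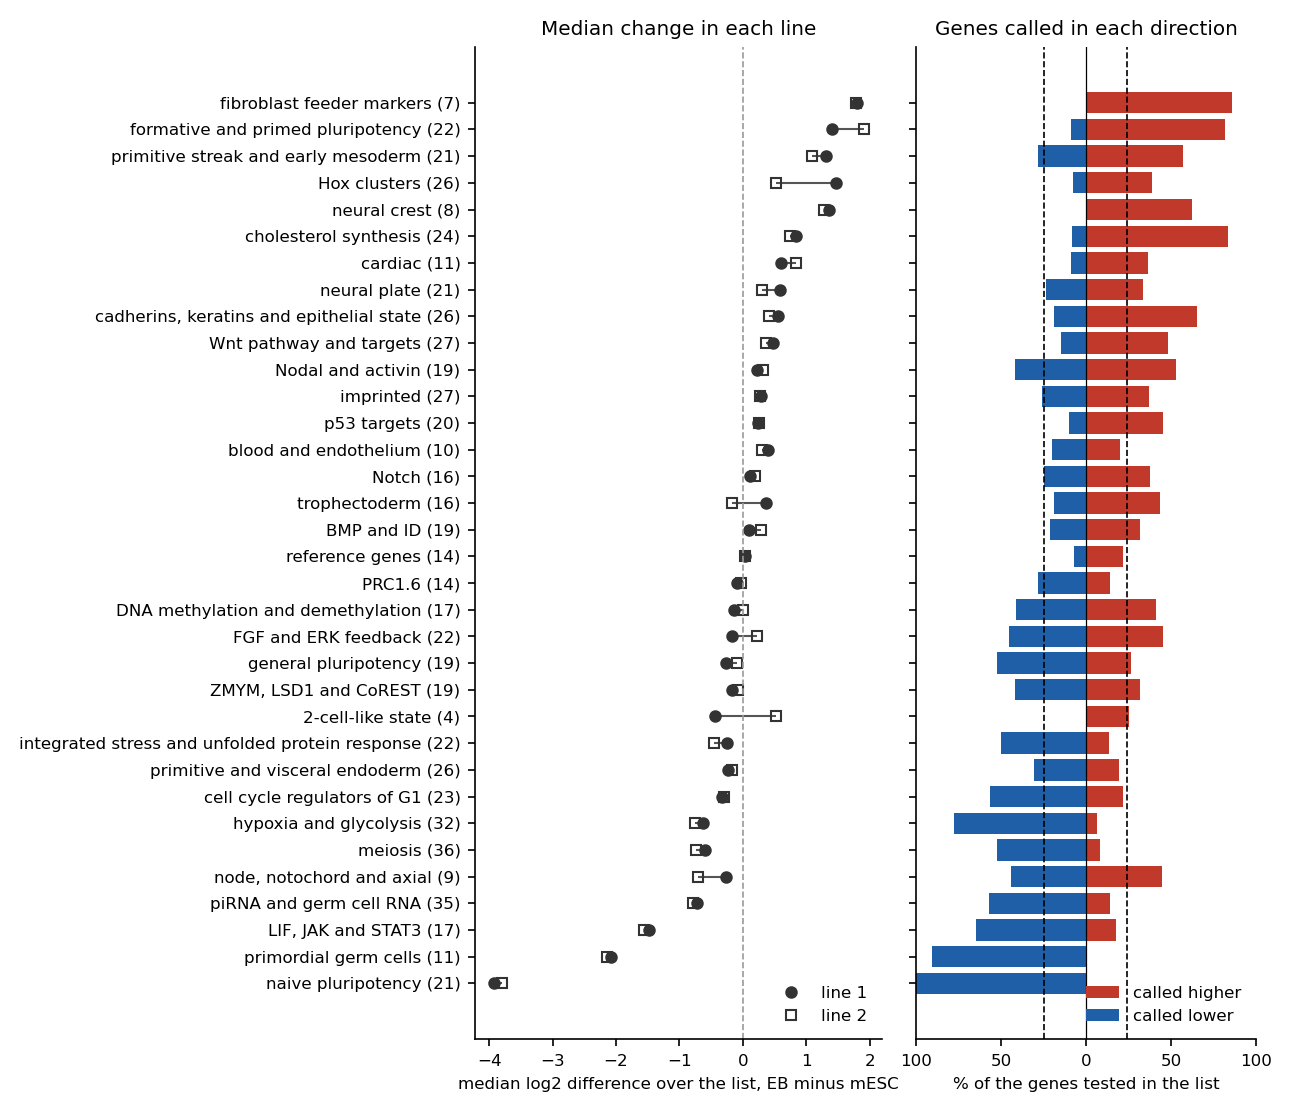
Left, the median log2 difference (EB minus mESC) over each of 34 gene lists in line 1 (circles) and line 2 (squares), with the number of genes tested in brackets and the median of all genes as a dashed line. Right, the percent of each list called higher (red) and lower (blue), with the shares over all genes, 24.3% and 24.9%, as dashed lines. The naive and primordial germ cell lists lie at the low end and the formative list near the high end in both lines.

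Signalling genes are given by pathway and role, beside 24.3% called higher and 24.9% called lower over all genes tested. In the LIF list 11 of 17 genes fell and 3 rose, with a median of -1.49. Its largest fall was that of Klf4, which is also a member of the naive list. The LIF receptor genes Lifr and Il6st (gp130) fell, from 3.42 and 3.35 to 0.707 and 0.760 RPKM and from 7.33 and 7.25 to 2.68 and 2.66. The transducer Stat3 fell from 11.2 and 10.7 to 2.546 and 2.895 RPKM. Its target and feedback inhibitor Socs3 (chr11:117966079-117970047) fell 64.8-fold, from 92.7 and 95.6 to 1.803 and 1.201, and the kinase gene Pim3 fell from 142 and 135 to 21.8 and 23.8. Lif itself rose, at levels of 0.560 and 0.598 RPKM in mESCs and 1.20 and 1.15 in EBs, and so did Jak2 and Socs2. The Socs2 call was lost without the EB library of line 2 (0.25). That of Jak2 was lost with limma, without the mESC library of line 1 (0.36) and without the EB library of line 2 (0.47).

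Ligands of the FGF family moved in both directions. Fgf4, the autocrine ligand of mESCs, fell from 64.1 and 68.7 to 15.01 and 17.73 RPKM, and Fgf17 fell from 37.5 and 39.2 to 2.71 and 2.17. Fgf5 rose as given above, Fgf8 rose from 0.471 and 0.264 to 22.63 and 14.97 RPKM, and Fgf15 rose from 2.85 and 2.69 to 18.5 and 22.2. Among the receptors Fgfr1, the most abundant, rose from 13.4 and 11.1 to 26.1 and 24.6 RPKM and Fgfr2 rose by 1.08 ± 0.23 on the log2 scale, while Fgfr3 and Fgfr4 fell by 1.18 ± 0.26 and 1.24 ± 0.21. The feedback inhibitors Spry2 and Dusp6 rose by 0.84 ± 0.13 and 0.97 ± 0.07, whereas Spry4 fell by 1.07 ± 0.10. In the FGF and ERK list as a whole 10 of 22 genes rose and 10 fell. Its median log2 change was -0.08, and turned positive without the mESC library of line 1, at 0.22.

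In the Nodal and activin list 10 of 19 tested genes rose and 8 fell. Nodal, the ligand, rose slightly from 31.1 and 30.9 to 44.7 and 35.6 RPKM, a call lost without the EB library of line 1 (0.17). Its secreted inhibitors Lefty1 and Lefty2 fell by 0.75 ± 0.06 and 0.75 ± 0.11, from 113 and 117 to 71.3 and 69.4 RPKM for Lefty1. Inhbb (chr1:119415465-119422248), which encodes the activin B subunit, fell from 19.21 and 20.90 to 0.057 and 0.006 RPKM, with 9 reads left in the EBs together. Follistatin (Fst), an activin binding inhibitor, rose from 0.725 and 0.787 to 7.59 and 5.71. The SMAD partner Foxh1 rose from 25.9 and 28.5 to 70.2 and 71.5. Pcsk6, a protease that matures Nodal, fell by 1.19 ± 0.09.

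In the Wnt list 13 of 27 genes rose and 4 fell, with a median of 0.38. The ligands Wnt3 and Wnt8a rose, from 0.158 and 0.187 to 3.51 and 2.11 RPKM and from 0.619 and 0.329 to 7.04 and 4.16, both higher in the EB of line 1. Tcf7l1, the repressor that holds naive genes down, rose from 11.2 and 9.09 to 31.5 and 31.6. The transcription factor gene Sp8 rose from 0.330 and 0.336 to 3.39 and 3.00. Notum, a secreted Wnt inhibitor and target, fell 31.9-fold, from 14.49 and 11.01 to 0.450 and 0.372 RPKM, whereas the target Axin2 rose by 0.42 ± 0.11, a call lost without the EB library of line 1 (0.31). Lef1 was not called, at 0.38 ± 0.18, but was called with the lines as a block (0.42) and without the mESC library of line 1 (0.81). Sfrp1, another secreted antagonist, fell by 1.16 ± 0.12.

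In the BMP list 6 of 19 genes rose and 4 fell, not far from the shares over all genes tested (24.3% and 24.9%). The ligands Bmp4 and Bmp7 fell, from 7.20 and 9.73 to 1.42 and 1.56 RPKM and from 1.90 and 2.23 to 0.375 and 0.270. The targets Id2 and Id3, inhibitors of basic helix-loop-helix factors, rose from 4.62 and 5.31 to 15.02 and 16.49 RPKM and from 13.2 and 11.5 to 39.2 and 34.5. In the Notch list 6 of 16 genes rose and 4 fell, none by 4-fold, and the share that fell was near that over all genes. The nuclear effector Rbpj fell from 13.5 and 13.7 to 4.36 and 4.93 RPKM. Among the receptors Notch1 fell by 1.20 ± 0.12, and Notch2 and Notch3 rose by 0.70 ± 0.10 and 0.78 ± 0.08.

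**Figure D4:**
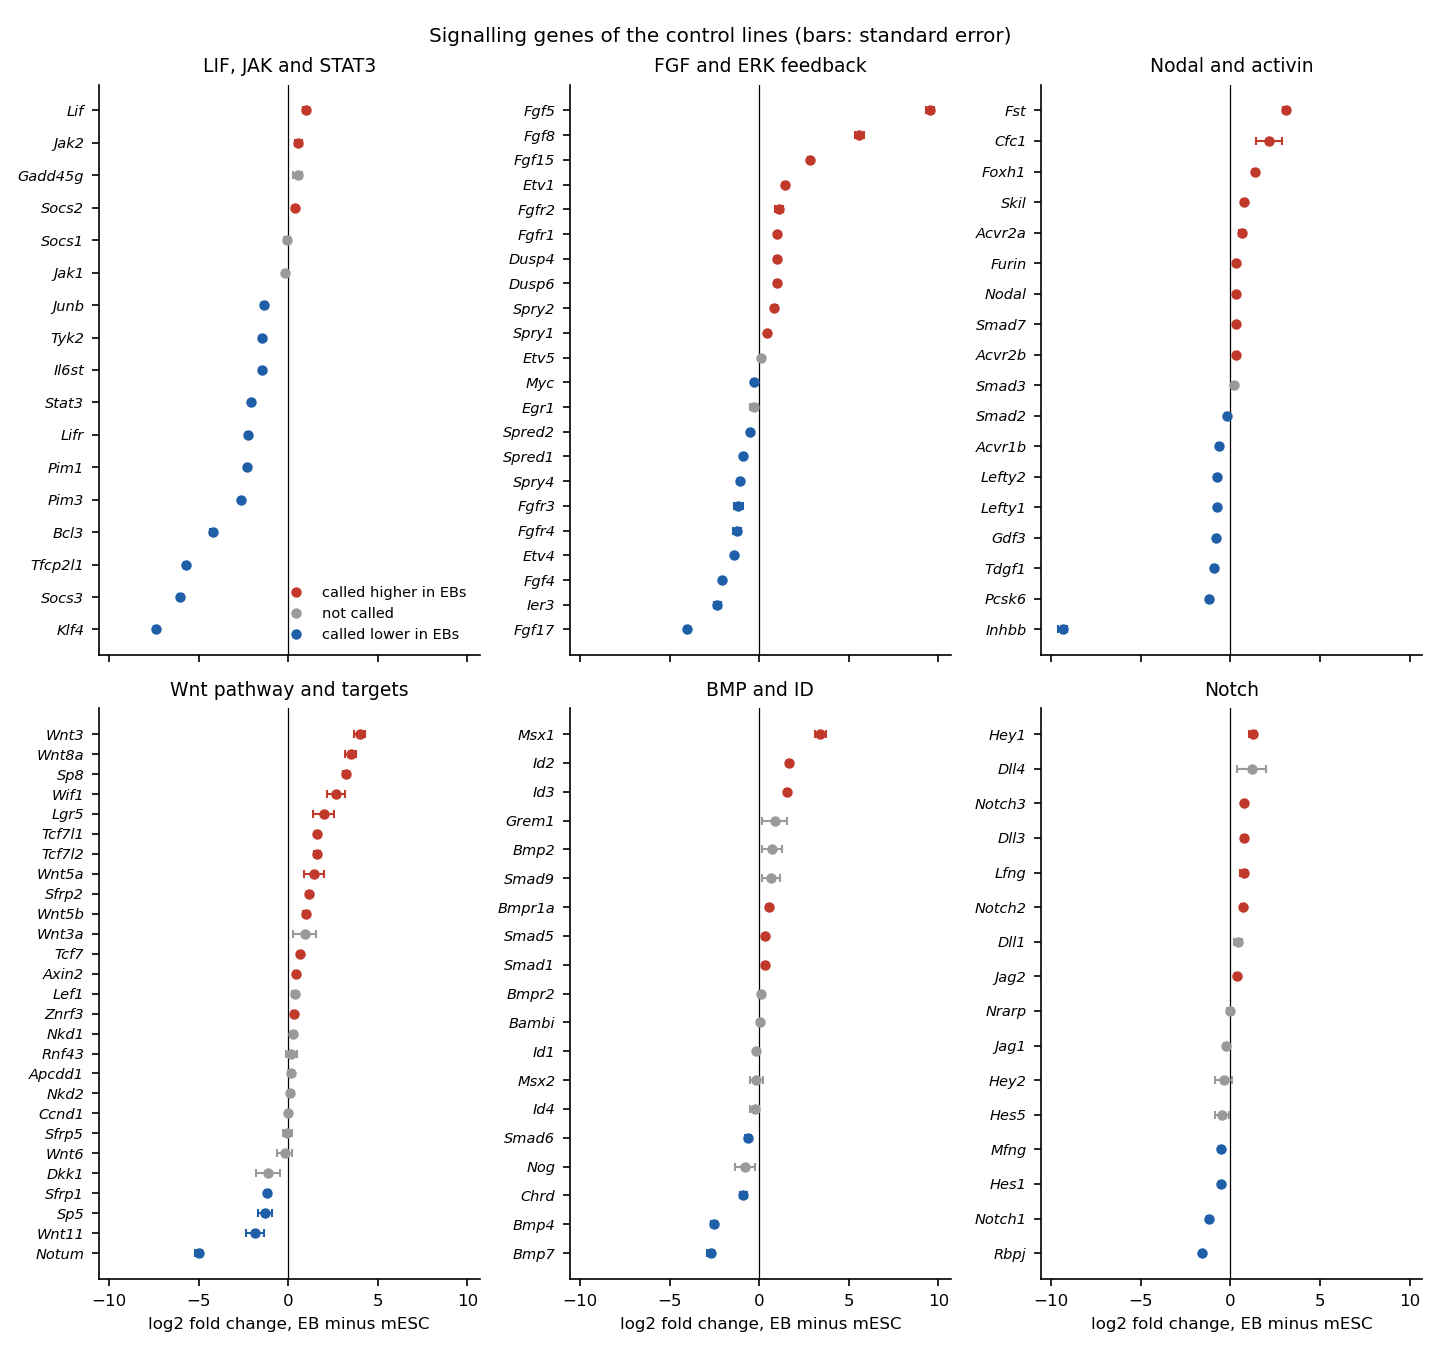
Fitted log2 fold changes (EB minus mESC, points) with their standard errors (bars) for tested genes of 6 signalling lists in the control lines, red where called higher, blue where called lower and grey where not called. Klf4 and Socs3 head the LIF genes that fell, Fgf5 and Fgf8 lie opposite Fgf4 and Fgf17, and Inhbb lies far below the other Nodal and activin genes.

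Lineage lists held genes called in both directions, beside 24.3% called higher and 24.9% called lower over all genes tested. In the primitive streak list 12 of 21 tested genes rose and 6 fell, with a median of 1.49, and the summed level was 20.2 and 20.3 RPKM in mESCs and 50.6 and 33.0 in EBs. Beside T, Eomes, Fgf8 and Wnt3, Nkx1-2 rose from 0.175 and 0.184 to 1.42 and 1.12 RPKM. Gsc, the organizer homeobox gene, rose from 0.201 and 0.043 to 2.07 and 0.920. Tbx3 and Cdx1 fell, Tbx3 from 6.92 and 7.38 to 0.555 and 0.438 RPKM, and Tbx3 is also a member of the naive list. Among 21 neural plate genes 7 rose and 5 fell. Cdh2 (N-cadherin) rose from 0.512 and 0.383 to 2.44 and 2.52, while Gbx2, a homeobox gene shared with the naive state, fell from 34.7 and 25.5 to 2.28 and 1.97, and Sox21 and Hesx1 fell by 2.77 ± 0.30 and 4.27 ± 0.50.

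In the neural crest list 5 of 8 tested genes rose and none was called lower. Msx1 rose from 0.137 and 0.203 to 2.20 and 1.43 RPKM, Twist1 from 2.12 and 1.82 to 8.88 and 7.68, and Ets1 by 2.12 ± 0.22. In the primitive and visceral endoderm list 5 of 26 rose and 8 fell, not far from the shares over all genes tested (24.3% and 24.9%). The basement membrane gene Lama1 fell most, from 10.7 and 9.91 to 0.675 and 0.566 RPKM, and its partner Lamc1 and the lipoprotein gene Apoe fell by 1.44 ± 0.07 and 0.90 ± 0.05. Dab2 and the endocytic receptor gene Lrp2 rose by 1.35 ± 0.26 and 1.45 ± 0.18. The median of this list was -0.30 and turned to 0.31 without the mESC library of line 1 and to 0.18 without the EB library of line 2.

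The Hox genes were low at both stages, at 5.49 and 6.13 RPKM summed over the list in mESCs and 14.9 and 8.47 in EBs. The median log2 change was 1.46 in line 1 and 0.52 in line 2. Of 39 Hox genes, 6 were listed in the EB table alone and 1 in the mESC table alone. Of the 26 tested, 10 rose and 2 fell, beside 24.3% and 24.9% over all genes tested. Of the 10 that rose, 8 were Hoxb1 to Hoxb8, neighbours in 1 cluster, a grouping noticed after the values were seen. Hoxb1 was at 0.055 and 0.047 RPKM in mESCs and 0.675 and 0.456 in EBs, and Hoxb3 at 0.030 and 0.039 and then 0.617 and 0.427. Hoxb2, Hoxb5 and Hoxb8 were higher in the EB of line 1 than of line 2, by 0.985 to 0.381, 0.487 to 0.214 and 0.572 to 0.257 RPKM. Hoxb6 had 3 reads in the mESC libraries and 44 in the EBs, a 17.1-fold ratio with a 95% exact counting interval of 5.47 to 86.0. Hoxb13 fell by 1.54 ± 0.37. Hoxb13 lost the call without the mESC library of line 1 (-1.10), and Hoxb8 without the EB library of line 1 (1.62).

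In the cardiac list 4 of 11 tested genes rose, all at low levels. Actc1 (cardiac actin) had no reads in the mESC libraries and 19 and 8 in the EBs, at least 10.5-fold higher when the mESC group is set to its floor of 3 counts. Myl4, a myosin light chain gene, fell from 0.603 and 0.637 to 0.045 and 0.076 RPKM. In the blood and endothelium list 2 of 10 rose and 2 fell, not far from the shares over all genes tested (24.3% and 24.9%). Pecam1, an adhesion molecule that mESCs share with endothelium, fell from 6.91 and 6.61 to 0.469 and 0.318 RPKM, and Tek fell by 1.94 ± 0.18. The 2-cell-like genes had few counted reads at either stage: 4 of 24 were tested, and the summed level of the list did not exceed 1.06 RPKM in any library. Some members, such as Zscan4d, belong to families of similar sequence. Reads shared between copies were not resolved here, so their level is uncertain.

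Germ cell genes fell in majority, beside 24.9% called lower and 24.3% called higher over all genes tested. All 11 primordial germ cell genes were tested and 10 fell, with a median of -2.15, and several of these (Prdm14, Tfap2c, Dppa3, Ifitm1, Ifitm3) are known to be expressed in naive mESCs as well. Tfap2c, an AP-2 factor, fell from 10.2 and 8.43 to 0.524 and 0.450 RPKM. Ifitm3, an interferon-induced membrane protein gene, fell from 245 and 217 to 58.7 and 54.0. Members of this family are similar in sequence, and reads shared between them were not resolved here.

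In the meiosis list 19 of 36 tested genes fell and 3 rose, beside 24.9% and 24.3% over all genes tested. The median of the list was -0.69. Stra8 (chr6:34920163-34939344), which starts meiosis in response to retinoic acid, fell 99.6-fold, from 12.9 and 10.4 to 0.050 and 0.181 RPKM. The meiotic cohesin subunit gene Stag3 fell from 8.22 and 8.25 to 1.75 and 1.56. Tex11 and Mlh3, which act in crossing over, fell by 2.75 ± 0.18 and 1.58 ± 0.09, and Hormad1, a chromosome axis gene, fell from 2.57 and 2.39 to 0.279 and 0.188. The synaptonemal complex gene Sycp3 was not called, at 8.03 and 8.70 RPKM in mESCs and 8.22 and 6.24 in EBs, whereas Sycp1 fell by 1.88 ± 0.25. Rad21l, a further meiotic cohesin gene, and Gm4969 (Meiosin), the partner of Stra8, rose by 2.07 ± 0.64 and 0.84 ± 0.25, at no more than 0.796 RPKM. The Gm4969 call was lost with limma on RPKM, without the mESC library of line 2 (0.71) and without the EB library of line 1 (0.59). The Rad21l call was lost by DESeq2 and without the same libraries (1.75 and 1.52).

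In the list of piRNA and germ cell RNA genes 20 of 35 tested genes fell and 5 rose, with a median of -0.88. The shares over all genes tested were 24.9% and 24.3%. Tex14, required for intercellular bridges, fell from 6.35 and 6.64 to 0.234 and 0.097 RPKM. Tdrd12 and Piwil2, of the piRNA machinery, fell from 10.6 and 8.25 to 1.53 and 1.61 and from 5.08 and 4.53 to 0.781 and 0.918. Ddx4, the vasa helicase gene, fell less, from 10.05 and 12.09 to 6.45 and 6.16 RPKM. Mael went from 5.26 and 5.16 to 4.33 and 3.41, a call (log2 change -0.47 ± 0.15) that was lost with all 8 libraries in the fit, without the mESC library of line 1 (-0.46) and without the EB library of line 2 (-0.31). Sohlh2, a germ cell helix-loop-helix factor gene, fell by 1.43 ± 0.27. Tdrd1 and Rbm46 rose by 1.45 ± 0.17 and 2.06 ± 0.32.

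The study had picked genes that were higher in Zmym2-/- embryos, a list chosen on other samples than these. Of its 95 genes transcribed from their own promoter, 80 were tested here, 37 fell and 10 rose, with a median of -0.79. Rbmxl2, a testis RNA binding gene, fell from 124 and 102 to 27.3 and 31.3 RPKM, and Slc9b1 and Chrna9 fell by 2.15 ± 0.12 and 5.03 ± 0.28. Against these, Lancl3 rose from 0.032 and 0.021 to 0.695 and 0.584 RPKM and Ms4a4d from 0.252 and 0.127 to 2.51 and 2.76. Over all genes tested 24.3% rose and 24.9% fell, and both shares were smaller among genes read as fusions with L1MdT elements. Of 46 such fusion genes, 26 were tested, 5 rose, 3 of them by at least 4-fold, and 3 fell, with a median of 0.15. Of those that rose, 4930526L06Rik went from 0.435 and 0.161 to 1.297 and 1.725 RPKM and Nckap1l rose by 1.26 ± 0.18 on the log2 scale. Among those that fell were Morc1, which fell from 4.69 and 4.59 to 0.270 and 0.352 RPKM, and Clca3b, which fell from 0.536 and 0.586 to 0.170 and 0.178.

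The promoters of germ cell genes that fell were read for an E-box (CACGTG, its own reverse complement) and an E2F-type motif (GCGGGA, searched on both strands), the letters that PRC1.6 subunits are known to bind. The 65 genes called lower in the own-promoter, meiosis and piRNA lists had a promoter in RefSeq for 48, with 56 promoters of 300 bases (250 before to 50 after the start). Of these 26.8% held the E-box and 28 of the 56 held the E2F-type motif, against 7.15% and 19.98% of all 32851 promoters in the table. The 67 genes of the same lists that were not called lower gave 26.3% and 29.8% of 57 promoters. A match is a description of letters, not of a bound site. Other genes called lower also held both motifs, such as Mael and Sycp1, and are not shown. Stag3, Rbmxl2, Hormad1 and Ddx4 are shown as examples that hold both motifs (in capitals), and each gene fell, by 2.36, 1.99, 3.45 and 0.85 on the log2 scale. Their positions in GRCm38.p6 are chr5:138280259-138280558 (plus strand), chr7:107209195-107209494 (plus), chr3:95559427-95559726 (plus) and chr13:112652261-112652560 (minus).
Stag3: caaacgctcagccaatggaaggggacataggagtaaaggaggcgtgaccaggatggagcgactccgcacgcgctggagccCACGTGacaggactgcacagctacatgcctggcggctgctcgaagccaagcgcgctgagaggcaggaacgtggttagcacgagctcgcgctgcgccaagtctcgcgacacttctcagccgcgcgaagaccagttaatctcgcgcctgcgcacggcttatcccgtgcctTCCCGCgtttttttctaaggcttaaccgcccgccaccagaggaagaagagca
Rbmxl2: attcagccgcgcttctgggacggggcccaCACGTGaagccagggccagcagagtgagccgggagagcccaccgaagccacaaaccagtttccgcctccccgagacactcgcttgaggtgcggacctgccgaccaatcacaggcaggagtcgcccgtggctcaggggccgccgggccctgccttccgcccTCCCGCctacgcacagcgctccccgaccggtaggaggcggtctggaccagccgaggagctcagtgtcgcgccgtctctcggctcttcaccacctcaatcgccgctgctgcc
Hormad1: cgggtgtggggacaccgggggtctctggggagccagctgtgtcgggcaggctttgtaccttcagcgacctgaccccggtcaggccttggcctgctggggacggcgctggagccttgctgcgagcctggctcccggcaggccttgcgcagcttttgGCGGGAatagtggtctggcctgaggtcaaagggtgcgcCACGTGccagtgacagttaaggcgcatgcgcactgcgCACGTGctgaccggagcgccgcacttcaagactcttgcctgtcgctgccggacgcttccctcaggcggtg
Ddx4: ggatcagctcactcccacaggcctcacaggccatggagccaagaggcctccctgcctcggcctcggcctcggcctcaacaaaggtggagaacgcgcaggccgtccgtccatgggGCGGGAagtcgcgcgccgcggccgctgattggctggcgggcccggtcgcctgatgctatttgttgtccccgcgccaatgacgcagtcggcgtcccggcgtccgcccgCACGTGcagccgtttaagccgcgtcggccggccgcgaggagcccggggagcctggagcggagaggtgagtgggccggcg

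Genes of DNA methylation moved both ways. Of 17 tested, 7 rose and 7 fell, beside 24.3% and 24.9% over all genes tested. Dnmt3b rose 12.4-fold and Dnmt3a rose from 12.09 and 8.801 to 27.21 and 28.9 RPKM. Dnmt3l, their catalytically inactive partner, fell from 97.5 and 58.7 to 25.6 and 25.4, and the maintenance enzyme Dnmt1 was not called, at 49.3 and 44.1 RPKM in mESCs and 43.3 and 42.5 in EBs. Dnmt1 was called lower with the lines as a block (-0.16) and without the mESC library of line 2 (-0.23). The demethylation enzymes Tet1 and Tet2 fell, from 15.9 and 13.2 to 3.69 and 4.29 RPKM and from 4.13 and 4.10 to 0.138 and 0.185. Zfp57, which guards methylation at imprinted loci, fell from 91.5 and 58.7 to 5.68 and 4.48. Both Dnmt3l and Zfp57 were higher in line 1 than in line 2 in mESCs.

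Genes of the ZMYM2 partners changed by less than 4-fold. Over all genes tested 24.3% rose and 24.9% fell. In the list of ZMYM, LSD1 and CoREST genes 6 of 19 rose and 8 fell, none by 4-fold. Zmym2 rose by 0.39 ± 0.07 on the log2 scale, Zmym3 fell from 7.73 and 6.49 to 2.49 and 2.51 RPKM, and Kdm1a (LSD1) fell from 78.1 and 75.8 to 51.2 and 54.0. Rest, the neuronal silencer, fell by 1.18 ± 0.11. In PRC1.6, 2 of 14 genes rose and 4 fell. The subunit genes Pcgf6 and Max were not called (log2 changes 0.03 ± 0.07 and 0.04 ± 0.07), L3mbtl2, Mga and Wdr5 fell by 0.27 ± 0.06, 0.50 ± 0.07 and 0.63 ± 0.06, and E2f6 and Yaf2 rose by 0.50 ± 0.08 and 1.36 ± 0.13.

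The epithelial list rose in majority, with 17 of 26 genes higher and 5 lower, beside 24.3% and 24.9% over all genes tested. Cdh1 (E-cadherin) rose by 0.48 ± 0.05, Cldn6, a claudin of the embryo, rose from 28.8 and 32.8 to 123 and 131 RPKM, and the simple keratins Krt8 and Krt18 rose from 12.4 and 13.8 to 45.9 and 36.1 and from 9.17 and 9.35 to 51.2 and 36.6. Fibronectin (Fn1) and its receptor subunit Itga5 fell, Fn1 from 60.4 and 62.6 to 11.9 and 13.5 RPKM. Cldn4 fell by 1.69 ± 0.09.

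Metabolic genes moved together within lists, beside 24.3% called higher and 24.9% called lower over all genes tested. In hypoxia and glycolysis 25 of 32 genes fell and 2 rose, with a median of -0.64. The glucose transporter Slc2a3 fell from 159 and 183 to 42.6 and 34.7 RPKM, phosphofructokinase Pfkp from 15.7 and 15.7 to 2.38 and 2.50, and hexokinase Hk2 by 1.14 ± 0.07. Ldha and the lactate exporter Slc16a3 rose by 0.19 ± 0.05 and 0.86 ± 0.07, the former call being lost without the EB library of line 1 (0.19). In cholesterol synthesis 20 of 24 genes rose and 2 fell, with a median of 0.85. Hmgcs1 rose from 35.2 and 37.0 to 76.9 and 82.4 RPKM, and Sqle from 16.7 and 16.4 to 40.8 and 45.0. Insig1 and Ebp fell by 0.40 ± 0.08 and 0.47 ± 0.12, the latter call being lost without the EB library of line 2 (-0.39).

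In the integrated stress and unfolded protein list 11 of 22 genes fell and 3 rose, beside 24.9% and 24.3% over all genes tested. The amino acid synthesis genes Asns and Psat1 fell, from 149 and 183 to 40.0 and 35.5 RPKM and from 154 and 169 to 64.8 and 60.6, and Trib3 fell by 1.87 ± 0.13. The arginine transporter gene Slc7a3 rose by 1.09 ± 0.07. Of 20 p53 targets 9 rose and 2 fell, none by 4-fold, with Pmaip1 (Noxa) and Ccng1 up by 1.304 ± 0.08 and 0.78 ± 0.07. Of 23 G1 regulators 13 fell and 5 rose, and the share that rose was near that over all genes. E2f1 and E2f2 fell by 1.23 ± 0.07 and 1.76 ± 0.12 and Ccnd3 from 25.1 and 34.4 to 8.29 and 10.1 RPKM, whereas Mycl rose by 1.39 ± 0.12 and Cdk4 by 0.41 ± 0.06.

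Of 27 imprinted genes tested 10 rose and 7 fell, beside 24.3% and 24.9% over all genes tested. Magel2 rose 70.1-fold, from 0.279 and 0.136 to 14.1 and 17.0 RPKM, and its neighbour Snrpn rose from 86.7 and 76.4 to 264 and 271. Peg3 rose by 1.77 ± 0.10, and the growth-restricting genes Phlda2 and Grb10 fell by 1.69 ± 0.09 and 0.98 ± 0.07. H19 and Igf2 were not called. Of 14 reference genes 10 were not called, with a median of 0.03 that kept its sign under each scaling tried. Gapdh had a log2 change of 0.08 ± 0.04. Actb had 719 and 492 RPKM in mESCs and 636 and 604 in EBs, and was called higher without the mESC library of line 1 (0.29) and lower without that of line 2 (-0.24). Gapdh was called higher with library totals and without the mESC library of line 2, at 0.12 each time. B2m rose by 0.78 ± 0.14 and Hprt fell by 0.55 ± 0.08.

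Beyond the lists, the 10 called genes with the largest fitted rise (at least 5 CPM in the higher stage, groups separated) were Fgf5, Enpp2, Magel2, Pcdh8, Fgf8, Spon1, Dclk1, Ror1, Pcdh18 and Calcr. Enpp2, which encodes autotaxin, went from 0.312 and 0.180 to 21.6 and 21.3 RPKM. The protocadherin genes Pcdh8 and Pcdh18 rose by 5.69 ± 0.20 and 5.30 ± 0.28, and Ror1, a receptor gene of Wnt signalling, rose from 0.037 and 0.033 to 1.58 and 1.36. The 10 with the largest fall were Ceacam1, Inhbb, Prdm14, Mymx, Emp1, Klf4, Laptm5, Myo1g, Jam2 and Megf11. Ceacam1, an adhesion molecule gene, had 290 and 215 reads in mESCs and none in EBs, at least 145-fold lower when the EB group is set to its floor of 3 counts. Mymx (chr17:45600971-45602102), known for its part in myoblast fusion, fell from 113 and 112 to 0.499 and 0.502 RPKM. Laptm5, a lysosomal membrane protein gene, fell from 11.1 and 10.3 to 0.064 and 0.086 RPKM.

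Ordered by absolute change in RPKM, the top of the list was held mostly by abundant RNAs. Dppa5a, Ftl1 (ferritin light chain), Eef1a1, Mt2 (metallothionein) and Aldoa lost most, Ftl1 from 3839.7 and 3897 to 1687 and 1521 RPKM and Mt2 from 743 and 729 to 192 and 156. Rising most were Gm23935 and CT010467.1, annotated as a miRNA and an rRNA gene, followed by Rplp1, which was not called (but was at 0.21 without the EB library of line 2), Dnmt3b and Trh, which encodes the thyrotropin-releasing hormone precursor and rose from 176 and 121 to 615 and 497. Several of these belong to families with near-identical copies, so their share of reads is uncertain. Gm23935 spans only chr16:11144125-11144181, and so short a gene inflates the RPKM. In CPM it was at 289 and 383 in the EBs, far below Dnmt3b at 2544 and 2636. Pim2, the X-linked counterpart of Pim3, rose from 12.3 and 7.63 to 360.3 and 352 RPKM.

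A further 1216 genes were listed in the EB table alone and 1233 in the mESC table alone, and were not tested. Their control counts were small, with medians of 7 and 8 reads, and the smallest row total in each table, taken over its control and Zmym2-/- libraries, was 10. Only 14 and 19 of them reached 100 control reads. The largest of the mESC set by RPKM included Serpinb6c, at 5.58 and 6.04 RPKM in mESCs and 0.043 and 0.058 in EBs, and 2210409E12Rik, at 7.04 and 7.04 and then 0.435 and 0. The EB set was led by hairpin genes such as Mir296, at 2.29 and 3.09 RPKM in EBs from 6 and 9 reads, where the short gene length inflates the RPKM.

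Some genes differed between the lines more than between the stages. Among genes at or above 10 CPM (counts scaled to library size), the largest differences between lines recurred in both stages for Abcb1a, Mcm8 and Myl9, each of which is described here without a test. Abcb1a, a drug efflux transporter gene, was at 5.60 and 0.979 RPKM in mESCs and 4.96 and 0.317 in EBs, higher in line 1 each time. Mcm8 was at 8.17 and 2.67 and then 8.05 and 2.76. Myl9 was lower in line 1, at 4.10 and 45.4 RPKM in mESCs and 15.2 and 88.6 in EBs. Over all genes tested the difference between the lines correlated at 0.059 between mESCs and EBs, a description across genes, which are not independent. Nrm, Alg13 and CAAA01147332.1 also differed between lines at both stages, and Lncenc1 in mESCs, at 4.31 and 0.995 RPKM.

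The same step was compared with the 2 Zmym2-/- lines by an interaction term over 8 libraries and 18926 genes. The change differed for 993 genes, more positive in the Zmym2-/- lines for 581 (3.07%) and more negative for 412 (2.18%). The count was 2325 with the lines as a block, and leaving out 1 library gave 404 to 1221 calls. The libraries whose absence cut the count by over 1.5 times were the control mESC library of line 2 (454), both control EB libraries (435 and 404) and both Zmym2-/- EB libraries (488 and 479). Of the 1527 genes called at 4-fold or more in the control lines, 1247 were called in the same direction in the Zmym2-/- lines, and 222 had a called interaction.

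The differences were counted by list, beside 3.07% more positive and 2.18% more negative over all genes tested. In the naive list 10 of 21 genes had a called interaction, 8 of them with a smaller fall in the Zmym2-/- lines, and the list median there was -3.76. Klf4 had an interaction of 2.07, Tfcp2l1 of 2.01 and Esrrb of 1.24 on the log2 scale, whereas Manba and Nr0b1 were the opposite at -2.0 and -0.96. In the formative list 13 of 22 genes had one, 10 of them with a smaller rise or larger fall, and the list median was 1.24. Fgf5, Otx2, Dnmt3b and Pou3f1 had interactions of -3.87, -2.71, -1.83 and -1.71. The fitted rise in the Zmym2-/- lines was 5.65 for Fgf5, whose control mESC level rests on 16 and 2 reads, and 1.80 for Dnmt3b. An interaction cannot tell a difference between the genotypes in mESCs from one in EBs, and which of these held was not tested. In the Hox list 7 of 26 were called, all in Hoxb genes and all more negative, such as Hoxb1 at -4.32 and Hoxb4 at -3.65. The fitted change from mESC to EB in the Zmym2-/- lines was -0.94 for Hoxb1 and -0.70 for Hoxb4. Control mESCs had only 6 and 4 reads of Hoxb1 and 10 and 3 of Hoxb4. Across the leave-out fits the counts of called genes ran from 8 to 11 in the naive list, 12 to 15 in the formative list and 4 to 6 in the Hox list. In direction, all 21 naive genes were negative in both genotypes' fitted changes, and the difference of the remaining 11 was not called.

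**Figure D5:**
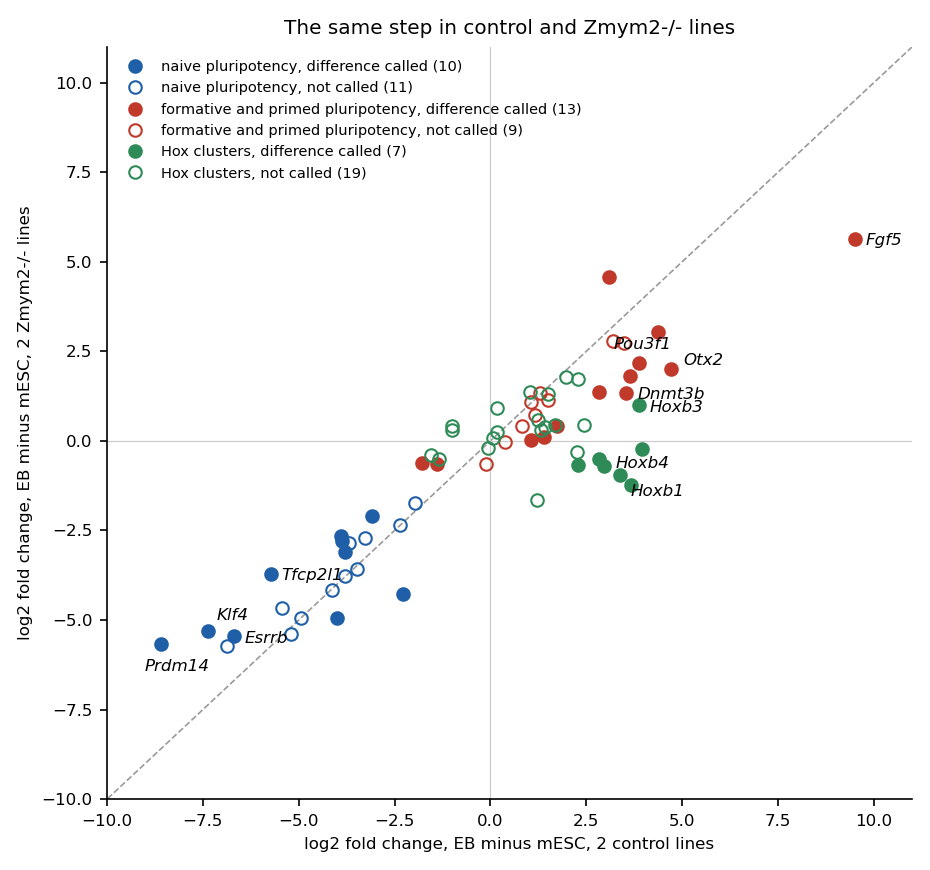
Log2 fold change from mESC to EB in the 2 control lines (x) and the 2 Zmym2-/- lines (y) for the tested genes of the naive (blue), formative and primed (red) and Hox (green) lists, filled where the interaction was called. Of the naive genes with a called interaction, 8 lie above the dashed line of equal change, and Manba and Nr0b1 lie below it. Among those not called, Fbxo15 lies slightly below this line. Fgf5, Otx2 and the 7 Hoxb genes with a called interaction lie below the line as well.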

How the data were processed

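RNA-seq of 2 control lines at 2 stages was used. Per the submitters' processing notes and methods, reads were trimmed with Trimmomatic 0.34, aligned to mm10 with STAR 2.7.8a and counted per gene with HTSeq. The authors deposited raw counts per stage, and RPKM values per gene, whose gene lengths are not given in the sources used here. Strand setting and table row filter are likewise not given. Genes were joined by Ensembl identifier and placed by the GENCODE M21 annotation. Counts were tested with edgeR 4.0.16 (R 4.3.3, TMM scaling, quasi-likelihood test, Benjamini-Hochberg adjustment) on genes with at least 10 counts over the 4 libraries, with stage as the only term. RPKM values served to show levels. The interaction was fitted on 8 libraries with genotype, stage and their product. Alternatives used DESeq2 1.42.0 and limma 3.58.1 on log2(RPKM + 0.1) or log2(RPKM + 1). In simulated data for the comparison of stages, 44 of 67, 52 of 67 and 64 of 66 genes changed by 1.5-, 2- and 4-fold were recovered. Among the 18516 genes run, 13 unchanged genes were called. Only the genes scored were changed, and they were drawn from genes above a minimum level. In the data 9111 genes were called, so these rates do not carry over to the data.

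Libraries with the same NT number were taken to share a line, by their column names alone. The study's supplementary read statistics name the second control EB library differently, and this was not resolved. The differences between the lines correlated at 0.059 between the stages. The lists and samples were chosen with earlier results of these data known. Named genes were the 10 largest changes in each direction, the 4 genes of smallest p in every list, at most 2 that moved against it, a preset set of markers, genes in only 1 table, genes that differed between lines, the interactions of smallest p in each direction, and the largest RPKM gains and losses. Other genes were named for their role after their values were seen. No 2 control libraries were identical, and the intervals and floors given hold counting error alone. The Zmym2-/- columns were used for the interaction, for the change in those lines, for the alternatives with all 8 libraries and for Zmym2. Some genes of the lists are counted but not reported here by name.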

Additional observations from a re-analysis of the deposited data

Results flagged for a closer look

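Named genes were listed here where the change from mESC to EB differed between the control and the Zmym2-/- lines (edgeR interaction term over 8 libraries, Benjamini-Hochberg adjusted p under 0.05). Each value is the log2 change in the Zmym2-/- lines minus that in the control lines. It does not tell a difference between the genotypes in mESCs from one in EBs. Of these 80 genes, leaving out 1 library kept the call for 54 to 71, DESeq2 for 72 and the fit with the lines as a block for 80.

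Among naive and LIF genes, the value was 2.07 for Klf4, 1.24 for Esrrb, 2.01 for Tfcp2l1, 1.24 for Tbx3, 0.70 for Zfp42, 2.92 for Prdm14, 1.06 for Gbx2, 1.12 for Socs3 and 0.51 for Pim3. It was -0.96 for Nr0b1 and -2.0 for Manba. Among formative genes and general pluripotency factors it was -3.87 for Fgf5, -2.71 for Otx2, -1.83 for Dnmt3b, -1.28 for Dnmt3a, -1.71 for Pou3f1, -1.34 for Sall2, -2.20 for Zic2 and -0.90 for Foxd3, against 0.76 for Etv4, 1.16 for Tcf15 and 1.47 for Fst.

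Among other signalling genes the value was -1.47 for Fgf15, 3.95 for Inhbb, -0.59 for Lefty2, 1.27 for Pcsk6, 1.24 for Axin2, -1.06 for Tcf7l1, 0.74 for Sfrp1, 2.17 for Bmp7 and -0.58 for Id3. In the Hox list it was -4.32 for Hoxb1, -3.35 for Hoxb2, -2.88 for Hoxb3, -3.65 for Hoxb4, -4.89 for Hoxb5, -4.19 for Hoxb6 and -2.97 for Hoxb8. Among lineage genes it was 3.15 for Cdx1, -0.87 for Cdh2, -0.99 for Nes, -2.42 for Pax6, 1.21 for Lama1, -0.94 for Lrp2, -1.06 for Tagln and -1.58 for Thy1.

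Among germ cell genes the value was 2.22 for Stra8, -1.52 for Gm4969, 1.11 for Tex11, 1.13 for Ddx4, 1.03 for Piwil2, 0.81 for Slc9b1, -0.85 for Ifitm1 and -0.45 for Ifitm3. Imprinted genes had -2.56 for Magel2, -0.85 for Snrpn, -0.84 for Peg3 and 0.35 for Grb10. The remaining values were 0.37 for Wdr5, 0.94 for Insig1, -0.73 for Slc7a3, 0.47 for E2f1, 7.11 for Ceacam1, 2.11 for Laptm5, -2.76 for Enpp2, -3.26 for Pcdh8, -1.41 for Spon1, -3.03 for Pim2, -1.02 for Trh, 0.65 for Ftl1 and -1.04 for CT010467.1. Of genes not described above, Cobl had 2.38, Cpe 3.15, Macroh2a1 1.04, Nfkb1 1.52, Sec14l1 1.32, Perp 0.95 and Pla2g1b 1.14, and Epha4 and Kif1a had -2.78 and -1.54. Ceacam1 had no reads in the control EBs, so its fitted value is no bound.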

How the results depend on the processing

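The counts of genes that rose (4501) and fell (4610) stayed within 1.5 times under every alternative run. With the lines as a replicate block they were 4819 and 4858, and 9095 of the 9111 called genes were called the same way. DESeq2 gave 3998 and 4052, with 8049 genes called the same way by both. Leaving out 1 library gave 3619 to 4331 that rose and 3736 to 4364 that fell, and 679 to 841 and 741 to 825 at 4-fold or more. The 4-fold counts moved from 747 and 780 to 1168 and 1246 with genes of either table, to 401 and 512 with limma on log2(RPKM + 0.1), and to 68 and 156 on log2(RPKM + 1), where the larger pseudocount shrinks the change of low genes. The interaction count moved from 993 to 2325 with the replicate block and ran from 404 to 1221 when 1 library was left out; the cause was not tested. Of 273 named genes 232 kept their call and direction in every alternative run, and none called in the fit as reported reversed. Actb, which was not called there, was called in opposite directions without 1 or the other mESC library (0.29 and -0.24). In 4067 fits of named genes, 86 lost a call and 33 gained one. Medians over the 2-cell-like, FGF, Notch, PRC1.6, endoderm and trophectoderm lists changed sign in at least 1 alternative. Genes near 0 at one stage were limited by their few reads.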

Other observations

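Groups of genes outside the lists also moved, and these groupings were made after the values were seen. Among all genes tested 24.3% rose and 24.9% fell. Of 16 tRNA synthetase genes tested, 12 fell and none was called higher, with a median log2 change of -0.40. Of 78 nuclear genes of the mitochondrial ribosome 29 fell and 5 rose, whereas 83 ribosomal protein genes were mostly not called, with 9 that rose and 14 that fell.

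On the X chromosome 31.6% of 678 genes tested rose and 17.7% fell, with a median log2 change of 0.13, against 24.3% and 24.9% over all genes. Among 453 lincRNA genes 11.7% rose and 25.8% fell.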
